A study of Rattus norvegicus with 12 samples.

Results

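The 10 circadian clock genes described here, Arntl, Clock, Per1, Per2, Per3, Cry1, Cry2, Nr1d1, Nr1d2 and Dbp, were taken by symbol from the deposited table of read counts. All 10 had a row among the 30045 in the table, and all 10 were among the 17330 genes with enough reads to be tested. The circadian clock is a loop of transcription factors that switches its own repressors on and off with a daily period in nearly every mammalian cell. In that loop, worked out mainly in mice, ARNTL (also called BMAL1) and CLOCK bind together to E-box sequences and drive the Period (Per) and Cryptochrome (Cry) genes, whose proteins accumulate and block ARNTL and CLOCK. The same E-box drive reaches the nuclear receptor genes Nr1d1 and Nr1d2, whose REV-ERB proteins repress Arntl through a sequence called the RORE, and the output factor Dbp, which acts on D-box sequences. Ovarian cells carry this loop, and it is known for its part in the timing of steroid hormone production and of the response to gonadotropins.

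The study compared primary theca-interstitial cells, the androgen-making cells around ovarian follicles, from wild-type female Sprague Dawley rats at postnatal day 30. The groups were cultures with rat IL-1β, a cytokine of inflammation whose dose the labels do not give, cultures with LPS, a bacterial cell wall component, at 1 µg/ml, and control cultures with vehicle. Each group held 4 libraries of polyadenylated RNA, all cultures were grown on human fibronectin, and treatment lasted 48 h. Whether the 4 libraries of a group stem from different animals or isolations is not stated, so the p-values reflect the spread among these libraries, which may be technical.

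Library totals ran from 20873934 to 32090924 counts. Levels are given as CPM, the usual unit of read counts relative to the scaled library total, not corrected for gene length. The SD over the libraries of a group stands after ±, with n = 4, and the SE stands after ± beside a log2 fold change. Genes counted as changed had an adjusted p under 0.05 by edgeR's quasi-likelihood test, with Benjamini-Hochberg adjustment over all genes tested. On the second principal component LPS replicates 3 and 4 lay apart from LPS replicates 1 and 2 (24.7 and 21.3 against 10.5 and 12.6), so results of the 10 clock genes that turn on them are also given without them. The 8 markers of steroid-making theca cells were all detected, although some were low in control cultures. Cyp17a1, the androgen-forming enzyme, had 12 to 18 counts per control library, and Insl3 had 4 to 8. The summed level of all 8 theca markers was 653 to 711 CPM with IL-1β and 477 to 547 CPM with LPS, against 220 to 251 CPM in control cultures. Markers of other cells were present as well, and several of their sums moved with treatment. The summed level of 6 smooth muscle markers was 1475 to 1676 CPM with IL-1β and 1786 to 2032 CPM with LPS, against 4625 to 5018 CPM in control cultures. For 8 endothelial markers the sum was 317 to 357 CPM with IL-1β and 223 to 297 CPM with LPS, against 145 to 169 CPM in control cultures. For 9 macrophage markers it was 87.4 to 95.9 CPM with IL-1β and 91.7 to 99.3 CPM with LPS, against 128 to 138 CPM in control cultures. For 6 granulosa markers it was 581 to 753 CPM with IL-1β and 389 to 532 CPM with LPS, against 338 to 404 CPM in control cultures. For 6 epithelial markers it was 15.3 to 17.8 CPM with IL-1β and 14.7 to 18.0 CPM with LPS, against 31.7 to 33.5 CPM in control cultures. Several of these sums join markers that moved in opposite directions. Of the epithelial markers 1 rose, 3 fell and 2 did not pass in each treatment. Of the macrophage markers 1 rose and 6 fell with IL-1β, and 2 rose and 6 fell with LPS. Of the granulosa markers 4 rose and 1 fell with IL-1β, and 2 rose and 1 fell with LPS. Of the smooth muscle markers 1 rose and 5 fell with IL-1β, and 5 fell and 1 did not pass with LPS. All 8 endothelial and all 8 theca markers rose with IL-1β, and 7 of each list with LPS. No marker on these lists was at 0 throughout a group, and the part these cells play in the clock gene results was not tested. In bulk RNA, fewer cells of a type and less RNA per cell cannot be told apart. All libraries were of the same treatment time, so a change in the level of a rhythmic transcript and a shift in its timing cannot be told apart either.

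The upstream sequences of the members are shown first, because the loop runs through short sequence motifs and because some of these genes changed together. RefSeq gave windows for 9 of the 10 genes, 11 windows in all, with 2 each for Clock and Nr1d1. Arntl stands there as Bmal1. Each was cut to the 250 bases before the start on build GRCr8, which is not the build of the counts. Motifs were searched on both strands. They were the E-box CACGTG, the E′-box CACGTT, the D-box TTANGTAA, the cAMP response element TGACGTCA, the RORE and the NF-kB site, the last of which is known as a target of inflammatory signals. Arntl and Per2, which had the highest and the lowest log2 fold change among the 10 genes with IL-1β, and the inner start of Nr1d1, the only member window with a CACGTG, are printed 5′ to 3′ with the matches in capitals.
Arntl, chr1:176766078-176766327, plus strand: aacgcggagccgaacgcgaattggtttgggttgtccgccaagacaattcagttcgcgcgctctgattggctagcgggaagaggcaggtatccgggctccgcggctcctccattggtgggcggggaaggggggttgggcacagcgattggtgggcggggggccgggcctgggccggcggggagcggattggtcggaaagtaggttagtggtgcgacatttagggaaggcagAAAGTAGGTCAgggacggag
Per2, chr9:99496994-99497243, minus strand: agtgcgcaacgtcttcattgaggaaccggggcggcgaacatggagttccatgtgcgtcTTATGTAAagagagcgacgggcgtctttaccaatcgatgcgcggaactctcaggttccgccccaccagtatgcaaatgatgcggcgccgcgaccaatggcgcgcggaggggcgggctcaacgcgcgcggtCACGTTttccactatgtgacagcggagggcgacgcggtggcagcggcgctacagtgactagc
Nr1d1, chr10:84229455-84229704, minus strand: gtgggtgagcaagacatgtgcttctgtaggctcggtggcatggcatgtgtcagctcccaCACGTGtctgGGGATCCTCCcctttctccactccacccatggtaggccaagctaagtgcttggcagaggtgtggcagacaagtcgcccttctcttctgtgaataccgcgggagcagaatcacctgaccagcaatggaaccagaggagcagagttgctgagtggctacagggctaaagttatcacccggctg

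In the Arntl window the capitals mark a RORE that ends 9 bases before the start. The similar AAAGTAGGTTA further upstream in this window was not matched, because the RORE pattern searched had to end in GGTCA. A RORE was found in 0.317% of the 33469 windows of the same length in the RefSeq table. In the Per2 window they mark a D-box that ends 184 bases before the start and an E′-box that ends 56 bases before it, motifs found in 2.04% and 4.07% of all windows. In the Nr1d1 window they mark an E-box that ends 185 bases before the start and, after it, a match to the NF-kB site, found in 5.59% and 6.33% of all windows. An E′-box was also found in the windows of Cry2 and of the outer start of Nr1d1, and the cAMP response element in that of 0 of the 9 genes. The windows of Clock, Per1, Per3, Nr1d2 and Dbp held no match to any of the motifs searched. These matches describe letters in a short window, and no binding was measured.

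The first comparison asked what the cytokine IL-1β does to gene expression in these cells. With it, 9 of the 10 clock genes passed the test, 2 higher and 7 lower, where 47.7% of all genes tested passed (24.7% higher and 23% lower). Arntl was higher, while Per2, Dbp, Per3, Nr1d1 and Cry2 were lower by 18.3% to 31.7% as given below. The changes were of moderate size, with a median absolute log2 fold change of 0.30 over the 10 genes and 0.17 over all genes tested. Over only the genes that passed, this median was 0.30 for the clock genes and 0.32 for all genes, so those that changed were of usual size. In 8 of the 10 genes, IL-1β and control libraries were fully separate, which held for 44.2% of all genes tested.

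The next asked what a bacterial product does. With LPS, 7 of the 10 passed, 1 higher and 6 lower, where 42.5% of all genes tested passed (22.5% higher and 20% lower). Arntl was again the gene higher, and Per2, Per3, Cry1, Cry2, Nr1d1 and Dbp were lower. The median absolute log2 fold change was 0.33 over the 10 genes and 0.15 over all genes tested. Over only the genes that passed, it was 0.35 for the clock genes and 0.29 for all genes. The LPS and control libraries did not overlap in 7 of the 10, where this held for 38.3% of all genes tested. Both treatments were set against the same 4 control libraries, so the 2 sets of results are not independent of each other.

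**Figure D1:**
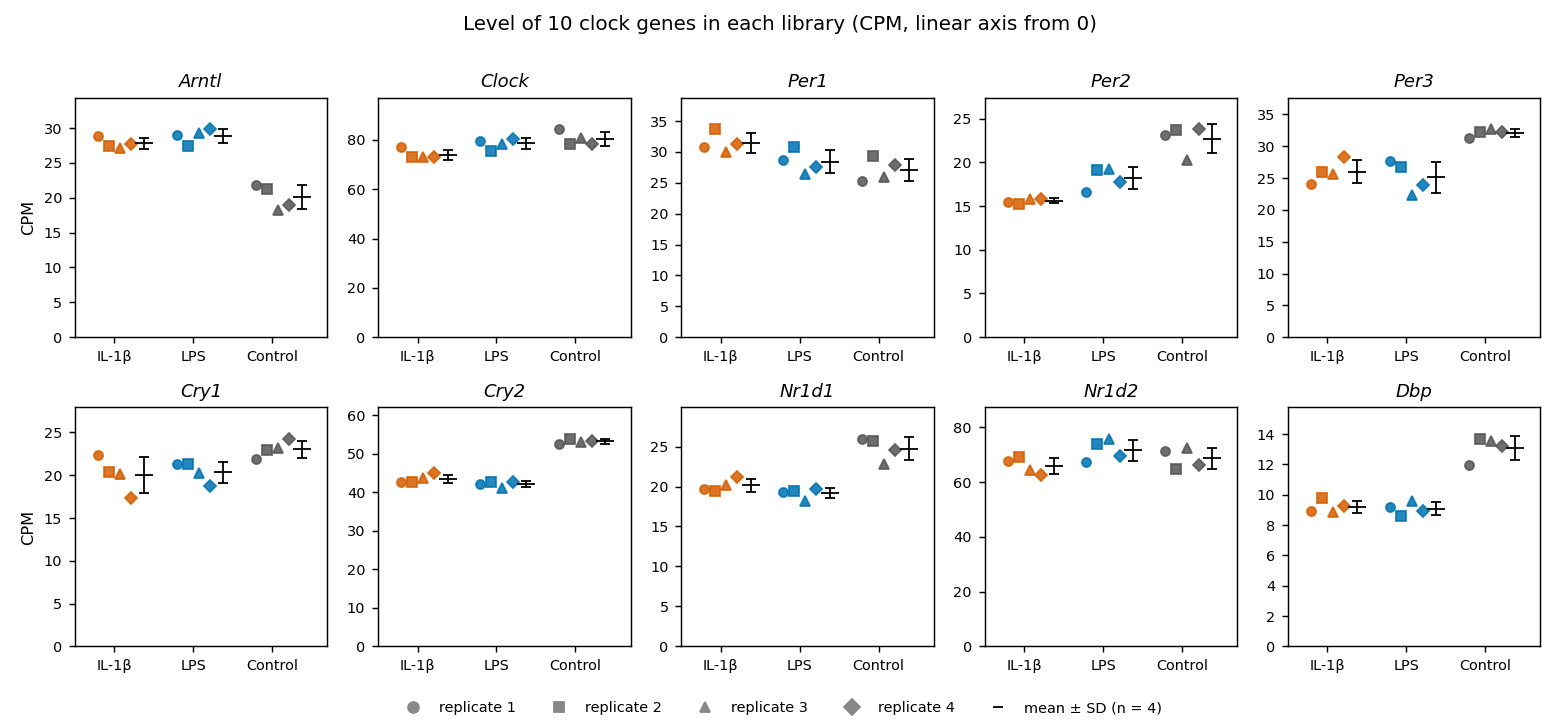
Level of each of the 10 clock genes in CPM (linear axis from 0) in the IL-1β, LPS and Control libraries, 1 marker per library with the shape giving the replicate number, and bars for the mean ± SD (n = 4). Arntl stands above Control in every treated library, at 27.1 CPM or more against 21.9 CPM or less, and Dbp, Nr1d1, Cry2, Per2 and Per3 stand below it.

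Among the activators, Arntl rose. Its level was 28.9, 27.4, 27.1 and 27.7 CPM in the IL-1β libraries and 29.0, 27.5, 29.3 and 29.8 CPM in the LPS libraries, against 21.9, 21.3, 18.3 and 19.0 CPM in the control libraries. Every treated library lay above every control library. The log2 fold change was 0.46 ± 0.05 with IL-1β (adjusted p = 5.30e-08, 37.7% higher) and 0.52 ± 0.05 with LPS (adjusted p = 6.00e-09, 43.2% higher). Clock, whose protein is the partner of ARNTL, moved little. It averaged 74.0 ± 2.01 CPM with IL-1β and 78.6 ± 2.07 CPM with LPS, against 80.4 ± 2.79 CPM in control cultures. It fell with IL-1β by 0.12 ± 0.03 on the log2 scale (adjusted p = 0.00438), a call lost when libraries were scaled by their totals alone (-0.07, adjusted p = 0.0903). With LPS its log2 fold change was -0.03 ± 0.03 (adjusted p = 0.448), with a 95% interval from -0.10 to 0.03, and under scaling by library totals alone its sign turned (0.005).

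The 3 Period genes, which encode repressors of ARNTL and CLOCK, differed among themselves. Per2 was at 15.5, 15.2, 15.8 and 15.9 CPM in the IL-1β libraries and at 16.6, 19.1, 19.3 and 17.8 CPM in the LPS libraries, against 23.2, 23.7, 20.3 and 23.8 CPM in the control libraries. Every treated library lay below every control library, and the IL-1β libraries also lay below all LPS libraries. Per2 fell by 0.55 ± 0.06 on the log2 scale with IL-1β (adjusted p = 1.39e-08) and by 0.33 ± 0.06 with LPS (adjusted p = 4.31e-05).

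Per3 was at 24.0, 25.9, 25.6 and 28.3 CPM in the IL-1β libraries and at 27.6, 26.7, 22.3 and 23.9 CPM in the LPS libraries, against 31.3, 32.2, 32.6 and 32.2 CPM in the control libraries. No treated library reached the control range, and the treated groups overlapped each other. Its log2 fold change was -0.31 ± 0.06 with IL-1β (adjusted p = 8.13e-05) and -0.35 ± 0.06 with LPS (adjusted p = 1.46e-05).

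Per1, known in other tissues as the Period gene that answers quickly to cAMP and glucocorticoids, was not lower. It averaged 31.4 ± 1.58 CPM with IL-1β and 28.4 ± 1.87 CPM with LPS, against 27.1 ± 1.82 CPM in control cultures. With IL-1β it rose by 0.21 ± 0.05 on the log2 scale (adjusted p = 0.00209), and the lowest IL-1β library, at 29.95 CPM, stood just above the highest control library, at 29.3 CPM. With LPS its log2 fold change was 0.07 ± 0.05 (adjusted p = 0.345), with a 95% interval from -0.04 to 0.18.

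Of the Cryptochrome genes, whose proteins are the main repressors of ARNTL and CLOCK, Cry2 had the narrowest spread in control cultures among the 10 genes, with a coefficient of variation of 1.11%. Counting error alone gives 2.64%, so this narrow spread over 4 libraries cannot be read as a trait of the gene. It stood at 42.6, 42.7, 43.6 and 44.9 CPM with IL-1β and at 42.1, 42.8, 41.2 and 42.6 CPM with LPS, against 52.5, 53.9, 53.1 and 53.3 CPM in control cultures. All treated libraries lay below all control libraries. Cry2 fell by 0.29 ± 0.04 on the log2 scale with IL-1β (adjusted p = 9.33e-08) and by 0.33 ± 0.04 with LPS (adjusted p = 8.55e-09). An uncharacterised gene that overlaps its locus, LOC102546693, had 2 to 13 counts per library.

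Cry1 was at 22.3, 20.4, 20.1 and 17.3 CPM with IL-1β and at 21.3, 21.3, 20.2 and 18.7 CPM with LPS, against 21.9, 22.9, 23.1 and 24.3 CPM in control cultures. IL-1β replicate 1 overlapped the control range, and the highest LPS libraries stood just below it. The log2 fold change of Cry1 was -0.20 ± 0.06 with IL-1β (adjusted p = 0.0114) and -0.18 ± 0.06 with LPS (adjusted p = 0.0235). The IL-1β call was lost without IL-1β replicate 4 (-0.14, adjusted p = 0.0696) and under scaling by library totals alone (-0.15, adjusted p = 0.0609). The LPS call was lost without Control replicate 4 (-0.15, adjusted p = 0.0897), without LPS replicate 4 (-0.14, adjusted p = 0.102), without LPS replicates 3 and 4 together (-0.11, adjusted p = 0.234) and under scaling by library totals alone (-0.14, adjusted p = 0.0820).

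Nr1d1, which encodes the repressor REV-ERBα, was at 19.7, 19.4, 20.1 and 21.2 CPM with IL-1β and at 19.3, 19.5, 18.2 and 19.7 CPM with LPS, against 26.0, 25.6, 22.8 and 24.6 CPM in control cultures. All treated libraries lay below all control libraries. It fell by 0.30 ± 0.05 on the log2 scale with IL-1β (adjusted p = 2.82e-05) and by 0.37 ± 0.05 with LPS (adjusted p = 1.47e-06). The locus of Nr1d1 overlaps that of Thra, the thyroid hormone receptor α gene, on the opposite strand, and the strand setting used for counting is not given in the sources used here, so reads of the overlap may be shared. Thra, named for this overlap, had a log2 fold change of 0.01 ± 0.05 with IL-1β (adjusted p = 0.864) and fell by 0.20 ± 0.05 with LPS (adjusted p = 0.00265).

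Nr1d2, which encodes the related REV-ERBβ, did not pass the test in either treatment. It averaged 66.0 ± 3.03 CPM with IL-1β and 71.7 ± 3.87 CPM with LPS, against 68.7 ± 3.76 CPM in control cultures. Its log2 fold change was -0.06 ± 0.04 with IL-1β (adjusted p = 0.292, 95% interval from -0.15 to 0.03) and 0.06 ± 0.04 with LPS (adjusted p = 0.253, 95% interval from -0.03 to 0.15). The lower end of each interval lies above the estimate for Nr1d1 in that treatment, and the difference between these genes was not tested.

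Dbp, the output factor of the PAR bZIP family and a textbook target of ARNTL and CLOCK, was at 8.91, 9.77, 8.89 and 9.23 CPM with IL-1β and at 9.18, 8.57, 9.59 and 8.92 CPM with LPS, against 11.9, 13.7, 13.5 and 13.2 CPM in control cultures. The treated groups lay on top of each other and below the control range. Dbp fell by 0.51 ± 0.07 on the log2 scale with IL-1β (adjusted p = 7.44e-07) and by 0.53 ± 0.07 with LPS (adjusted p = 3.89e-07). It had the fewest reads of the 10, with 216 to 401 counts per library, and counting error alone gives a coefficient of variation of 5.34% in control cultures, where 6.10% was observed.

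**Figure D2:**
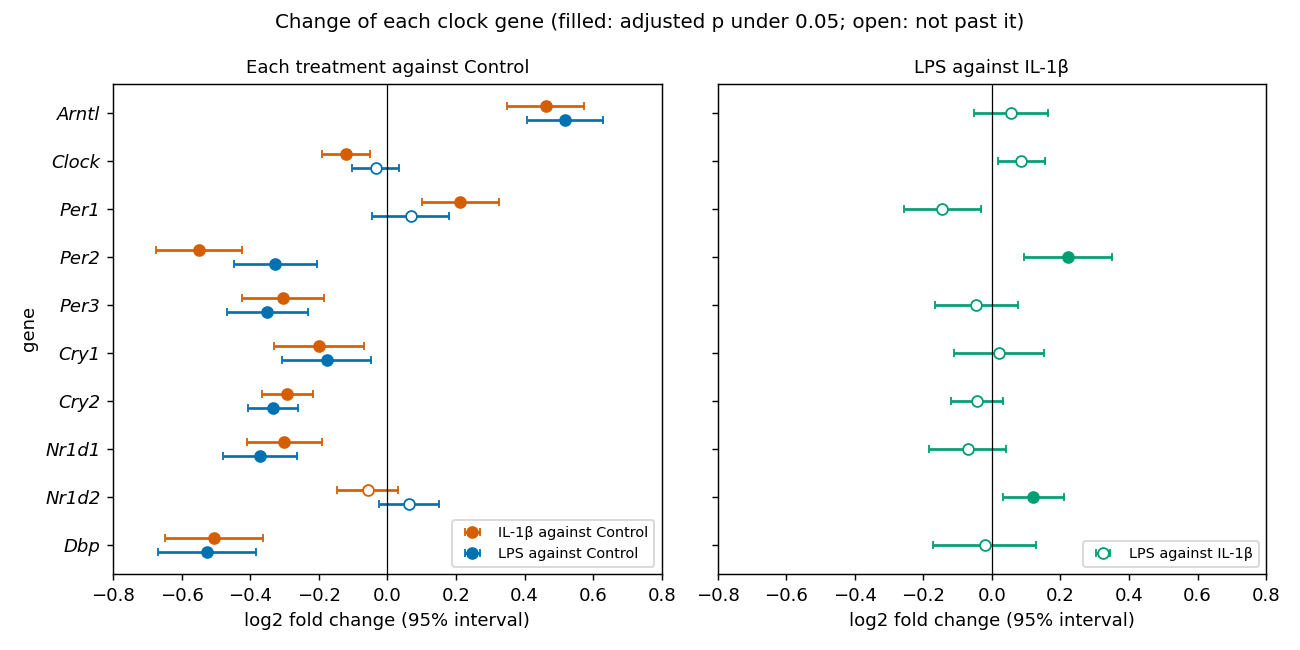
Log2 fold change of each clock gene with its 95% interval, for IL-1β and LPS against Control (left) and for LPS against IL-1β (right), where filled points had an adjusted p under 0.05. Arntl lies right of 0 and Per2, Per3, Cry1, Cry2, Nr1d1 and Dbp left of 0 in both treatments, and on the right most intervals include 0.

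LPS was also compared with IL-1β directly. Here 2 of the 10 clock genes passed, Per2 and Nr1d2, both higher with LPS, where 21.9% of all genes tested passed (11.3% higher), so the share of the members is near that of all genes. Per2 averaged 18.2 ± 1.24 CPM with LPS and 15.6 ± 0.286 CPM with IL-1β, a log2 fold change of 0.22 ± 0.06 (adjusted p = 0.0105). It was the 1 gene of the 10 whose LPS and IL-1β libraries did not overlap, where this held for 21.6% of all genes tested. The call was lost without LPS replicates 3 and 4 together (0.20, adjusted p = 0.0903). Nr1d2 stood at 0.12 ± 0.04 (adjusted p = 0.0457), and this call held in 8 of 18 alternative settings. The Nr1d2 call was lost without LPS replicates 3 and 4 together (0.10, adjusted p = 0.214) and without LPS replicate 3 alone (0.09, adjusted p = 0.152). Per1, at -0.14 ± 0.05 (adjusted p = 0.0571), and Clock, at 0.09 ± 0.03 (adjusted p = 0.0682), stood just outside the threshold, and passed it in 7 and 3 of 18 alternative settings.

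For the other 6 genes the difference between LPS and IL-1β was small against its error. The 95% interval of the log2 difference ran from -0.05 to 0.16 for Arntl, from -0.17 to 0.08 for Per3, from -0.11 to 0.15 for Cry1, from -0.12 to 0.03 for Cry2, from -0.18 to 0.04 for Nr1d1 and from -0.17 to 0.13 for Dbp. A p that misses the threshold does not show that the treatments act alike on these genes, and these intervals together reach from -0.18 to 0.16.

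The ratio of a pair of members within a library does not depend on how libraries are scaled. The log2 ratio of Arntl to Dbp averaged 1.59 ± 0.0850 with IL-1β and 1.67 ± 0.0520 with LPS, against 0.61 ± 0.189 in control cultures. The lowest treated library, at 1.48, stood above the highest control library, at 0.87. The log2 ratio of Arntl to Nr1d1 was 0.38 to 0.55 with IL-1β and 0.50 to 0.69 with LPS, against -0.37 to -0.25 in control cultures, so that it was above 0 in every treated library and below 0 in every control library. The log2 ratio of Cry1 to Dbp, 2 genes that were both lower, was 0.90 to 1.32 with IL-1β and 1.06 to 1.30 with LPS, against 0.74 to 0.87 in control cultures. These ratios are of reads, not corrected for transcript length, so their differences between groups can be read and their sign cannot. They are a description of genes chosen with earlier results of these data known, and no test was made.

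**Figure D3:**
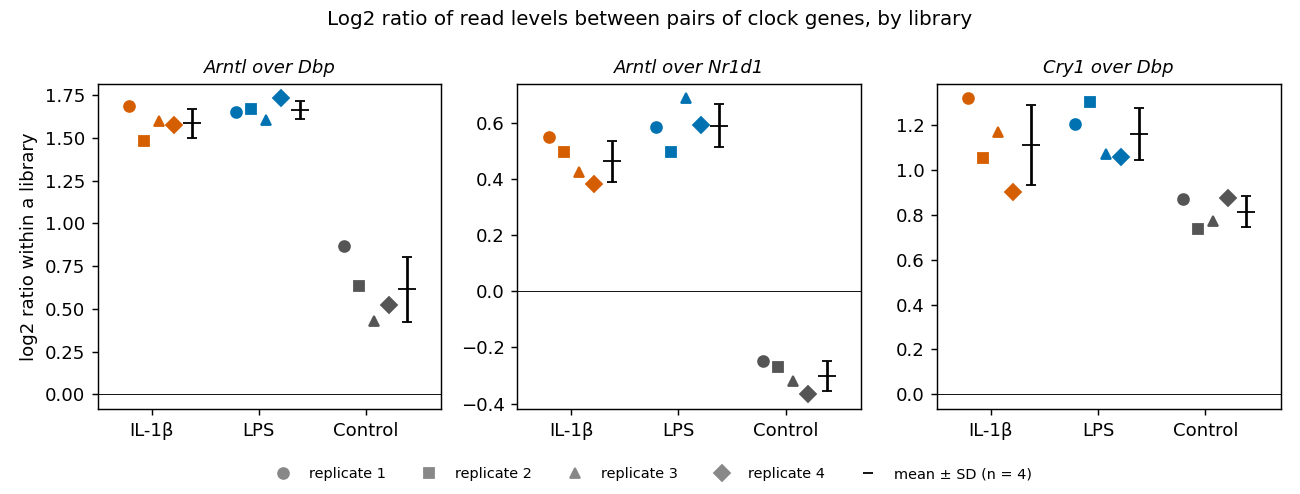
Log2 ratio of the read levels of Arntl to Dbp, Arntl to Nr1d1 and Cry1 to Dbp within each library, for the IL-1β, LPS and Control groups, with 1 marker per library and bars for the mean ± SD (n = 4). The Arntl to Nr1d1 ratio is 0.38 or more in treated libraries and -0.25 or less in control libraries.

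The other genes of the loop were taken from a list of paralogues and second-loop factors. Of its 11 genes 9 were tested, and Hlf was not analysed here. With IL-1β 3 of the 9 rose and 3 fell, with a median log2 fold change of -0.03, and with LPS 3 rose and 2 fell, with a median of 0.13. Over all genes tested the medians were 0.01 in both comparisons, and 24.7% passed as higher and 23% as lower with IL-1β, and 22.5% and 20% with LPS.

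Npas2 and Arntl2, paralogues of Clock and Arntl whose proteins can stand in for them, were low but higher in every treated library. Npas2 was at 2.69, 2.62, 2.89 and 2.69 CPM with IL-1β and at 2.12, 1.75, 2.03 and 1.89 CPM with LPS, against 1.27, 1.64, 1.22 and 1.28 CPM in control cultures. It rose by 1.01 ± 0.15 on the log2 scale with IL-1β (adjusted p = 1.57e-06) and by 0.52 ± 0.15 with LPS (adjusted p = 0.00674). The 3 groups were ordered without overlap.

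Arntl2 was at 3.00, 3.04, 3.18 and 3.51 CPM with IL-1β and at 2.38, 2.38, 1.68 and 2.13 CPM with LPS, against 0.603, 0.703, 0.830 and 0.955 CPM in control cultures. It had 17 to 29 counts per control library. Its log2 fold change was 2.04 ± 0.17 with IL-1β (adjusted p = 7.14e-11) and 1.48 ± 0.18 with LPS (adjusted p = 1.24e-07). Both genes were lower with LPS than with IL-1β, with a log2 difference of -0.49 ± 0.14 for Npas2 (adjusted p = 0.0108) and -0.56 ± 0.14 for Arntl2 (adjusted p = 0.00466).

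Nfil3, which encodes a repressor that competes with DBP at D-boxes, rose, while Tef, a PAR bZIP activator like Dbp, fell. Nfil3 was at 28.1, 27.5, 29.6 and 26.9 CPM with IL-1β and at 26.3, 25.2, 24.9 and 23.3 CPM with LPS, against 14.7, 14.3, 14.3 and 12.7 CPM in control cultures. The log2 fold change of Nfil3 was 1.01 ± 0.06 with IL-1β (adjusted p = 1.66e-14) and 0.84 ± 0.06 with LPS (adjusted p = 1.25e-12). Tef averaged 36.6 ± 0.992 CPM with IL-1β and 36.2 ± 1.40 CPM with LPS, against 43.1 ± 0.939 CPM in control cultures, with log2 fold changes of -0.24 ± 0.04 (adjusted p = 1.82e-05) and -0.25 ± 0.04 (adjusted p = 9.27e-06). The treated libraries of both genes lay wholly outside the control range.

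Bhlhe41 and Bhlhe40 encode repressors (DEC2 and DEC1) that bind E-boxes. Bhlhe41 was at 2.65, 2.20, 3.04 and 2.05 CPM with IL-1β and at 2.60, 1.43, 2.61 and 1.64 CPM with LPS, against 5.39, 5.00, 5.12 and 5.83 CPM in control cultures. It fell by 1.10 ± 0.15 on the log2 scale with IL-1β (adjusted p = 8.67e-07) and by 1.38 ± 0.15 with LPS (adjusted p = 3.21e-08). Bhlhe40 had log2 fold changes of -0.03 ± 0.06 with IL-1β (adjusted p = 0.759) and 0.17 ± 0.06 with LPS (adjusted p = 0.0507), and was higher with LPS than with IL-1β by 0.20 ± 0.06 (adjusted p = 0.0467). The libraries of the last comparison overlapped, at 110 to 136 CPM with LPS and 99.1 to 113 CPM with IL-1β. The highest was LPS replicate 3, and the call is not given here without LPS replicates 3 and 4.

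Rora, which encodes an activator at ROREs, and Ciart, which encodes a repressor of ARNTL and CLOCK, did not pass. Rora stood at -0.01 ± 0.06 with IL-1β (adjusted p = 0.876) and 0.13 ± 0.06 with LPS (adjusted p = 0.1002), and Ciart at -0.06 ± 0.08 (adjusted p = 0.570) and -0.12 ± 0.08 (adjusted p = 0.262). Rorb, another receptor gene for ROREs, was barely detected. It had 4 to 10 counts per library with IL-1β and 8 to 15 with LPS, against 9 to 20 in control cultures. It fell with IL-1β by 1.05 ± 0.34 on the log2 scale (adjusted p = 0.0111), while with LPS it stood at -0.39 ± 0.30 (adjusted p = 0.314).

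**Figure D4:**
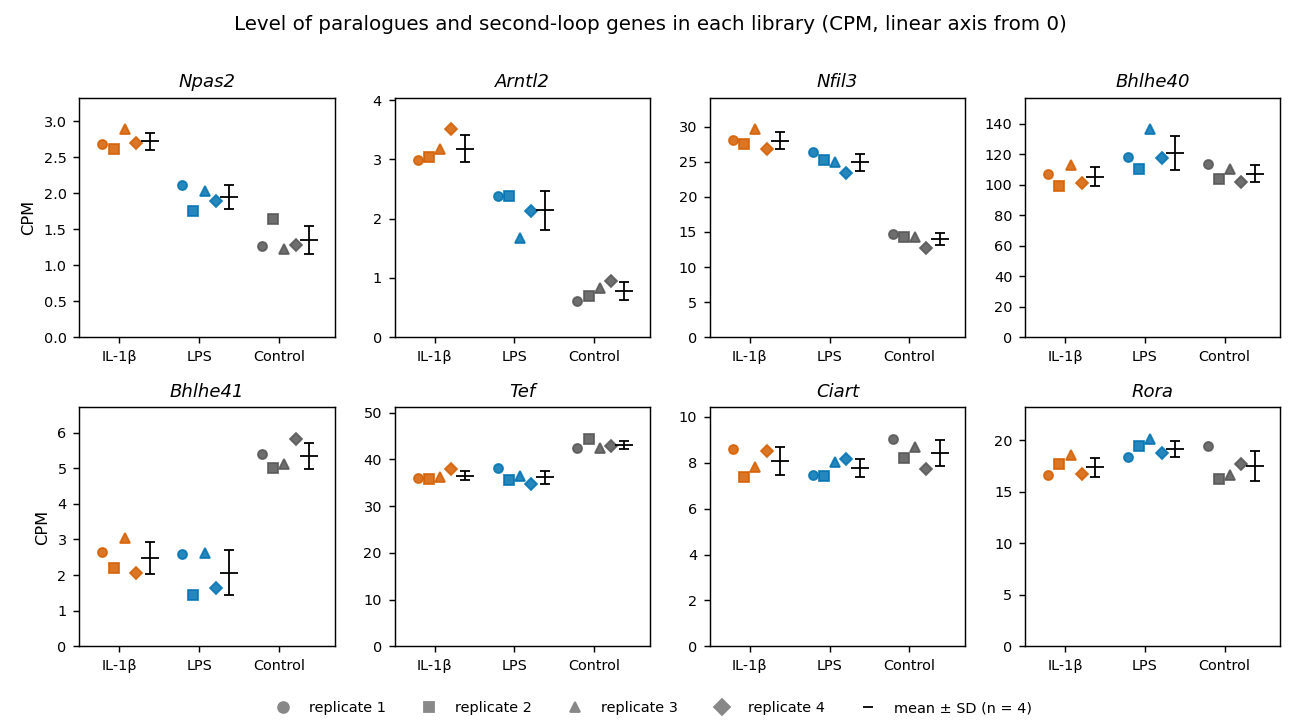
Level in CPM (linear axis from 0) of 8 paralogues and second-loop genes of the clock in the IL-1β, LPS and Control libraries, 1 marker per library with bars for the mean ± SD (n = 4). Npas2, Arntl2 and Nfil3 stand above Control and Bhlhe41 and Tef below it in every treated library, while Bhlhe40, Ciart and Rora overlap it.

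Genes whose proteins modify clock proteins, such as kinases and ubiquitin ligases, mostly moved little. Of 17 tested, 5 rose and 4 fell with IL-1β (median 0.02), and 8 rose and 3 fell with LPS (median 0.07). Of all genes tested, 47.7% passed with IL-1β and 42.5% with LPS, so the share of these genes called with IL-1β is near that of any genes. The gene with the largest change among them in either treatment was Prkaa2, a catalytic subunit of the energy-sensing kinase AMPK, which marks Cryptochromes for breakdown in mice. It averaged 16.7 ± 0.949 CPM with IL-1β and 18.8 ± 0.818 CPM with LPS, against 26.1 ± 1.57 CPM in control cultures, and fell by 0.64 ± 0.06 (adjusted p = 2.11e-10) and by 0.47 ± 0.06 (adjusted p = 5.70e-08) on the log2 scale. Prkaa1, the gene of the other catalytic subunit, did not fall. Its log2 fold change was 0.03 ± 0.04 with IL-1β (adjusted p = 0.562) and 0.11 ± 0.04 with LPS (adjusted p = 0.0114), from 62.5 ± 2.81 CPM in control cultures. Usp2, a deubiquitinase gene that in mouse tissues is itself rhythmic, fell by 0.42 ± 0.11 with IL-1β (adjusted p = 0.00345) and by 0.46 ± 0.11 with LPS (adjusted p = 0.00149).

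Of 8 genes that carry outside signals to the clock, 5 rose and 1 fell with IL-1β (median 0.13), and 4 rose and 1 fell with LPS (median 0.06), where 47.7% and 42.5% of all genes tested passed. Sik1, a kinase gene induced by cAMP whose product limits the resetting of the clock in mice, averaged 15.8 ± 1.07 CPM with IL-1β and 11.95 ± 1.24 CPM with LPS, against 7.68 ± 0.935 CPM in control cultures. It rose by 1.04 ± 0.09 on the log2 scale with IL-1β (adjusted p = 4.87e-11) and by 0.64 ± 0.09 with LPS (adjusted p = 8.35e-07). The gene that fell was Nr3c1, the glucocorticoid receptor gene, at 95.7 ± 1.78 CPM with IL-1β and 114 ± 1.89 CPM with LPS, against 131 ± 3.50 CPM in control cultures. Its log2 fold change was -0.45 ± 0.03 with IL-1β (adjusted p = 2.10e-13) and -0.20 ± 0.03 with LPS (adjusted p = 1.78e-06), and the difference between LPS and IL-1β was 0.26 ± 0.03 (adjusted p = 2.69e-07).

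Genes with the most similar pattern were sought by the root mean square difference of log2 CPM, each gene centred on its mean over the 12 libraries, among 10498 genes. The nearest to Dbp were Tpcn1, an ion channel gene of endosomes and lysosomes (0.0579), Ckap4 (0.0591) and Evc, a gene of the primary cilium (0.0618), where Dbp itself varied by 0.251 about its mean. The nearest to Arntl were Il17ra, the receptor gene for IL-17 (0.0580), Tmem246 (0.0621) and Mmd (0.0625), where Arntl varied by 0.246. No other member was among the 3 genes nearest to either.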

How the data were processed

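The authors deposited raw read counts per gene symbol, 1 column per library, without normalization. Per the labels' protocols, libraries were made with a stranded mRNA kit and sequenced on an Illumina HiSeq. The rat build was Rnor_6.0 and the tools named were DESeq2, SAMtools and TopHat2 2.1.1, per the submitters' processing notes. The counting program and annotation are not given in the sources used here.

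Counts were tested in R 4.3.3 with edgeR 4.0.16. filterByExpr kept 17330 genes, TMM factors ran from 0.976 to 1.02, and all 12 libraries were fitted with group as the sole term (glmQLFit, robust). Quasi-likelihood F-tests are two-sided, with Benjamini-Hochberg adjustment, and the SE is the absolute log2 fold change over the square root of F. Log2 CPM for ratios and patterns used a prior count of 2. The members and lists were chosen with earlier results of these data known. Beside all 10 members, the text names from each list up to 6 genes with an absolute log2 fold change of at least 0.5 and an adjusted p under 0.05 in either treatment, the main loop genes, and the 3 genes nearest to Dbp and to Arntl. Thra, Usp2, Prkaa1, Nr3c1, Klf9 and Tsc22d3 were chosen after their values were seen. Some genes that the rule takes are not reported here. Alternatives were DESeq2 1.42.0, limma-voom in limma 3.58.1, other scaling and filters, fits on 8 libraries, a replicate block and each library left out. The procedure was tested on simulated data. No row was nearly identical to that of a member.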

Additional observations from a re-analysis of the deposited data

Results flagged for a closer look

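Dixon's test, on the gap of a library to its nearest neighbour over the range of its group, was run on 39 genes. Genes reported here but not among them included Prkaa1, Klf9 and Tsc22d3. Of the 117 groups of 4 libraries checked, 5 held a library that stood far apart. Chance flags about 1 group in 20. Clock in IL-1β replicate 1 was at 77.0 CPM, where the other IL-1β libraries were at 72.9 to 73.0 CPM. Npas2 in Control replicate 2 was at 1.64 CPM, against 1.22 to 1.28 CPM in the other control libraries. Klf10 in IL-1β replicate 3 was at 56.1 CPM, against 59.6 to 59.9 CPM in the other IL-1β libraries. Il17ra in LPS replicate 2 was at 55.6 CPM, against 60.3 to 60.8 CPM in the other LPS libraries. Mmd in LPS replicate 3 was at 43.5 CPM, against 37.6 to 38.2 CPM in the other LPS libraries.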

How the results depend on the processing

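Against control, the calls of the 10 clock genes held in all alternatives run, apart from those of Clock and Cry1 given above, and the count lower was 6 to 7 with IL-1β and 5 to 6 with LPS when 1 library was left out. Scaling by library totals alone shifted the median of all genes by 0.05 with IL-1β and 0.04 with LPS, raised the share of calls that were higher to 64.1% and 63.4%, against 51.7% and 53.0% with TMM, and gave Clock with LPS 0.005. LPS against IL-1β was the least stable comparison. Its count of clock genes higher was 1 under library totals alone, upper-quartile factors, the stricter filter, DESeq2 and limma-voom, its count lower was 1 under library totals alone, upper-quartile factors, no filter, the stricter filter and the replicate block, and its total was 1 under DESeq2 and limma-voom and 4 under the block. With 1 library left out these were 1 to 3 higher, 0 to 1 lower and 1 to 3 in all. Without LPS replicates 3 and 4 together, an alternative chosen after seeing the data, edgeR called 0 clock genes higher and 0 in all, where 1 had an unadjusted p under 0.05, and 960 of all genes were higher and 1019 lower (1979 in all); of the other pathway genes 6 were higher and 4 lower (10 in all), and with 1 library left out 7 to 10 were higher. Some differences between LPS and IL-1β changed sign when 1 library was left out, with ranges of -0.0924 to 0.0069 for Per3, -0.0425 to 0.0782 for Cry1 and -0.0472 to 0.0086 for Dbp, and Per3 was at 0.066 without LPS replicates 3 and 4. The cause was not tested. Replicate numbers are shared by the groups. Between libraries of the same number, r of their deviations across genes ran from -0.0330 to 0.117 (1 of 12 pairs over 0.1). Between libraries of different numbers it ran from -0.0749 to 0.0557 (0 of 36 pairs over 0.1). For 4 of the 12 libraries, the 2 best partners were those of the same number. A shared effect of the replicate number was not tested. In the fit with the replicate block, Clock (0.09, adjusted p = 0.0411) and Per1 (-0.15, adjusted p = 0.0154) also passed between LPS and IL-1β. Depth limits the values of Rorb (4 to 20 counts per library) and, in control cultures, of Il6 (8 to 16) and Arntl2 (17 to 29).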

Other observations

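Genes induced by glucocorticoids, which reset the clock in many tissues, did not move in 1 direction. Of 6 tested, 4 rose and 2 fell with IL-1β (median log2 fold change 0.30), and 3 rose and 2 fell with LPS (median 0.11), where 47.7% and 42.5% of all genes tested passed. Fkbp5, a co-chaperone gene of the receptor, averaged 125 ± 1.91 CPM with IL-1β and 132 ± 2.23 CPM with LPS, against 74.2 ± 2.17 CPM in control cultures (SD, n = 4). By edgeR it rose by 0.75 ± 0.03 (adjusted p = 5.75e-18) and by 0.83 ± 0.03 (adjusted p = 6.54e-19) on the log2 scale. Sgk1, a kinase gene, rose by 0.53 ± 0.04 with IL-1β and by 0.27 ± 0.04 with LPS, and Klf9 by 0.45 ± 0.05 and 0.33 ± 0.05. Dusp1, a phosphatase gene, fell by 0.60 ± 0.05 with IL-1β and by 0.38 ± 0.05 with LPS, and Tsc22d3 fell by 0.33 ± 0.05 and by 0.27 ± 0.05.

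Of 9 genes reported as clock targets in other tissues, 5 rose and 3 fell in each treatment, where 47.7% of all genes tested passed with IL-1β and 42.5% with LPS. The largest changes were in inflammatory and steroidogenic genes with many other regulators. The log2 fold change with IL-1β and with LPS was 2.42 and 2.69 for the cytokine gene Il6, 2.05 and 2.91 for the chemokine gene Ccl2, and 1.52 and 1.33 for Star, which moves cholesterol into mitochondria. Alas1, of haem synthesis, was at 0.61 and 0.23, and Klf10 at 0.54 and 0.43.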
